A study of Mus musculus with 6 samples.

Results

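The small leucine-rich proteoglycans described here are 10 genes, *Dcn*, *Bgn*, *Aspn*, *Ecm2*, *Lum*, *Fmod*, *Prelp*, *Omd*, *Ogn* and *Podn*, taken by symbol from 20327 gene symbols. Of these 10 genes, 8 had enough tags to be tested, among 9334 tested genes. Small leucine-rich proteoglycans are secreted matrix proteins built around leucine-rich repeats, and many carry chondroitin, dermatan or keratan sulfate chains. Several of them bind fibrillar collagens and limit the growth of collagen fibrils, and some also bind growth factors of the TGFβ family or act on receptors at the cell surface. In the gut wall they are made mainly by fibroblasts and other mesenchymal cells.

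Stromal cells from the inflamed colon of *Il11-Egfp* reporter mice were separated by EGFP, to compare cells that express the reporter of the cytokine gene *Il11* with cells that do not. Both groups, EGFP-Negative and EGFP-Positive (n = 3 libraries each), carried the *Il11-Egfp* genotype on the C57BL/6 strain and had the same treatment, 1.5% DSS (dextran sulfate sodium, which injures the colonic epithelium) in drinking water for 5 days and then plain water. The colon was taken on day 7 from mice that were 9 to 15 weeks old and, per the methods, male. Cells were sorted as Ter119-CD45-CD31-EpCAM-, which removes erythroid, other hematopoietic, endothelial and epithelial cells, and RNA was read by 5′Tag-seq, which counts tags from the 5′ side of polyadenylated transcripts. EGFP was driven by *Il11* sequences on a bacterial artificial chromosome in a selected transgenic line, the EGFP-Positive gate was not fully pure per the methods, and there was no group without DSS. The libraries held 1057170, 1078179 and 1169817 tags in EGFP-Negative replicates 1, 2 and 3 and 1046538, 1022851 and 1049048 tags in EGFP-Positive replicates 1, 2 and 3. *Il11* itself had 28, 51 and 89 tags in EGFP-Negative and 1357, 732 and 2658 tags in EGFP-Positive libraries, so the groups did not overlap and stood as labelled.

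Of the 8 tested members, 4 fell in EGFP-Positive cells, namely *Ecm2* (6.46-fold lower), *Ogn* (5.29-fold lower), *Aspn* (4.52-fold lower) and *Prelp* (2.55-fold lower), and 0 rose. Calls required an adjusted p under 0.05 in edgeR's quasi-likelihood test together with a fold change over 2. At an unadjusted p under 0.05 and without the fold threshold, 2 members were higher and 5 lower, as were 12.2% and 14.5% of all tested genes, and in DESeq2 with the same thresholds 0 members rose. By the rule for calls 6.37% of all tested genes were lower and 3.44% were higher in EGFP-Positive cells. Without the fold threshold *Dcn* would pass as higher and *Lum* as lower. For 5 tested members all 3 EGFP-Positive libraries lay below all 3 EGFP-Negative libraries, for 2 members they lay above, and for 1 member the groups overlapped; among all tested genes 16.7% lay below and 14.5% above. The 8 tested members had a median log2 fold change of -0.99, and all tested genes had one of -0.01. In these bulk samples, fewer cells of a type and less RNA per cell cannot be told apart.

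**Figure D1:**
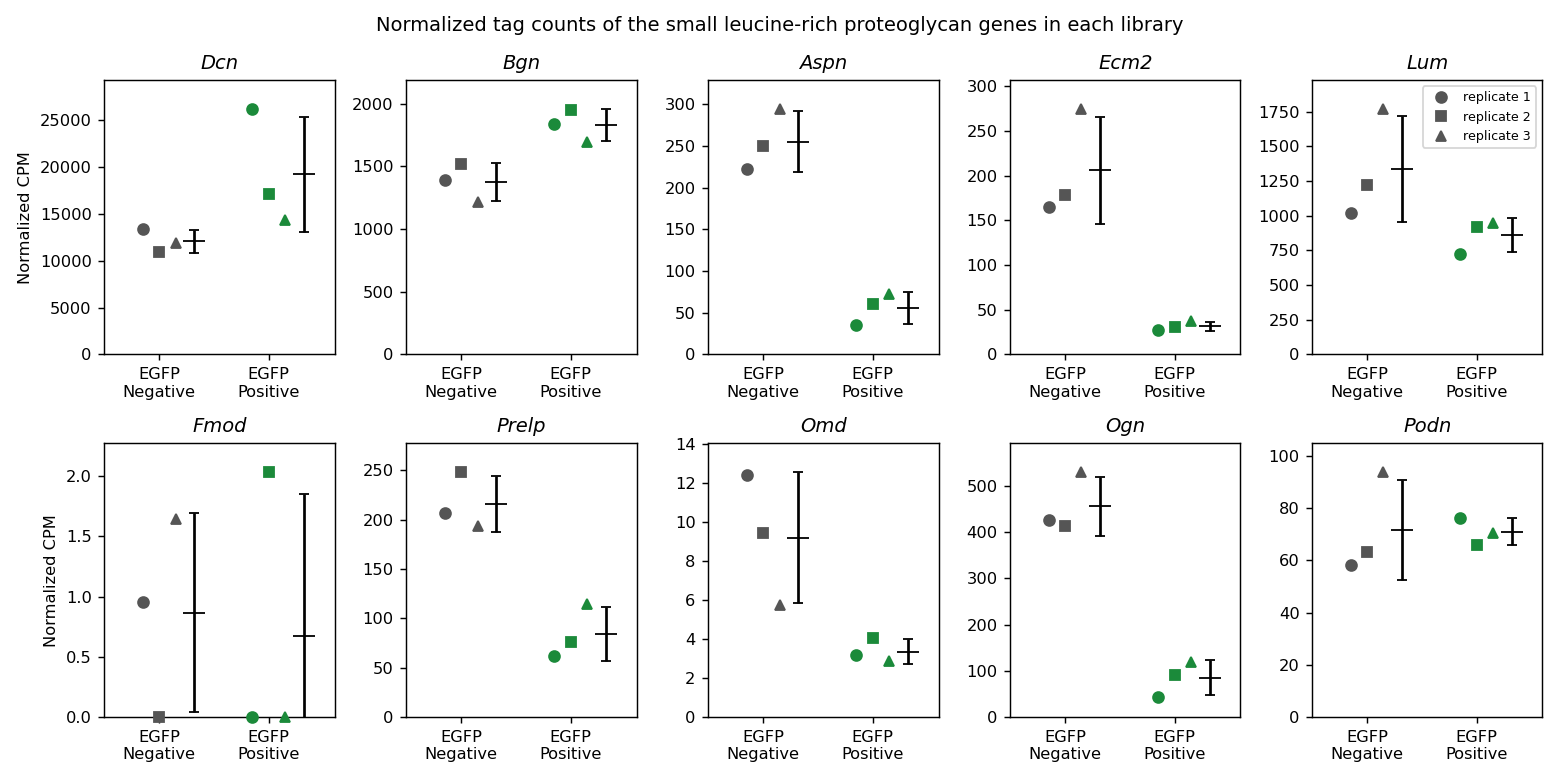
Normalized CPM (linear axis from 0) of each member in each library, with circles, squares and triangles for replicates 1, 2 and 3 and black bars for the mean ± SD (n = 3 libraries; a lower bar is not drawn below 0). *Aspn*, *Ecm2*, *Prelp* and *Ogn* were lower in every EGFP-Positive library than in any EGFP-Negative library, and *Podn* overlapped.

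Class I holds decorin and its closest relatives. *Dcn*, which encodes the collagen-coating proteoglycan decorin, had 14029, 11620 and 14508 tags in EGFP-Negative and 24693, 16830 and 15091 tags in EGFP-Positive replicates 1, 2 and 3. After normalization all EGFP-Positive libraries were above all EGFP-Negative libraries, and EGFP-Positive replicate 1 stood well above the other two. The mean was 12085 ± 1233 normalized CPM (tag counts relative to TMM-scaled library sizes) in EGFP-Negative and 19217 ± 6172 in EGFP-Positive (SD, n = 3), with a log2 fold change of 0.67 (95% interval 0.21 to 1.13, adjusted p = 0.0462 in edgeR). *Dcn* was therefore not called, because its fold change was under 2. Its adjusted p stayed under 0.05 without EGFP-Positive replicate 3 (0.0141) and was 0.108, 0.264 and 0.0935 without EGFP-Negative replicates 1, 2 and 3, 0.0830 without EGFP-Positive replicate 2 and 0.176 without EGFP-Positive replicate 1, where the log2 fold change was 0.39. It was 0.0904 with 10 tags required in all 6 libraries and 0.000372 with the replicate block.
*Bgn*, which encodes biglycan, a relative of decorin that can also signal through Toll-like receptors when it is released from the matrix, had 1457, 1608 and 1483 tags in EGFP-Negative and 1737, 1917 and 1774 tags in EGFP-Positive libraries. All EGFP-Positive libraries were above all EGFP-Negative libraries by a small margin. The mean was 1375 ± 149 normalized CPM in EGFP-Negative and 1826 ± 128 in EGFP-Positive (SD, n = 3), with a log2 fold change of 0.41 (95% interval 0.06 to 0.76, adjusted p = 0.114 in edgeR). With the replicate block the log2 fold change of *Bgn* was 0.41 (adjusted p = 0.0186 in edgeR), which passed the threshold on p and not the one on fold.
*Aspn*, which encodes asporin, an aspartate-rich class I protein that binds collagen and TGFβ, had 233, 265 and 358 tags in EGFP-Negative and 33, 60 and 76 tags in EGFP-Positive libraries. The groups were far apart, and EGFP-Positive replicate 1 was the lowest library. Asporin transcripts fell, with means of 255 ± 36.1 in EGFP-Negative and 56.1 ± 19.2 normalized CPM in EGFP-Positive (SD, n = 3). This is a drop of 4.52-fold (95% interval 3.29 to 6.23), or -2.18 on the log2 scale with an SE of 0.220 (adjusted p = 1.26e-06 in edgeR).
*Ecm2*, which encodes a matrix protein whose leucine-rich repeats resemble those of decorin, had 173, 189 and 334 tags in EGFP-Negative and 26, 30 and 39 tags in EGFP-Positive libraries. The highest EGFP-Positive library was far below the lowest EGFP-Negative library. The mean fell, with means of 206 ± 59.6 in EGFP-Negative and 31.7 ± 4.94 normalized CPM in EGFP-Positive (SD, n = 3). This is a drop of 6.46-fold (95% interval 4.63 to 9.01), or -2.69 on the log2 scale with an SE of 0.229 (adjusted p = 1.9e-07 in edgeR). Class I thus held members on both sides, with *Dcn* and *Bgn* above and *Aspn* and *Ecm2* below in the EGFP-Positive libraries.

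Class II holds the keratan sulfate members and their relatives. *Lum*, which encodes lumican, a regulator of collagen fibril diameter, had 1072, 1296 and 2153 tags in EGFP-Negative and 681, 902 and 992 tags in EGFP-Positive libraries. All EGFP-Positive libraries were below all EGFP-Negative libraries, and EGFP-Negative replicate 3 was the highest of the 6. The mean was 1337 ± 386 normalized CPM in EGFP-Negative and 861 ± 122 in EGFP-Positive (SD, n = 3), with a log2 fold change of -0.64 (95% interval -1.06 to -0.21, adjusted p = 0.0378 in edgeR), which was under the fold threshold. Its adjusted p was 0.0180 without EGFP-Negative replicate 1 and 0.0393 without EGFP-Positive replicate 3, and it was 0.0838 without EGFP-Negative replicate 2, 0.137 and 0.0888 without EGFP-Positive replicates 1 and 2 and 0.186 without EGFP-Negative replicate 3, where the log2 fold change was -0.40. With the replicate block it was 0.000618.
*Prelp*, which encodes a proline- and arginine-rich protein that binds collagen and heparan sulfate, had 216, 263 and 236 tags in EGFP-Negative and 59, 75 and 120 tags in EGFP-Positive libraries. The groups did not overlap, and EGFP-Positive replicate 3 came closest to the EGFP-Negative libraries. *Prelp* fell, with means of 216 ± 28.3 in EGFP-Negative and 84.4 ± 26.9 normalized CPM in EGFP-Positive (SD, n = 3). This is a drop of 2.55-fold (95% interval 1.89 to 3.43), or -1.35 on the log2 scale with an SE of 0.206 (adjusted p = 0.000125 in edgeR).
*Omd*, which encodes osteomodulin, a keratan sulfate proteoglycan best known from bone, had 13, 10 and 7 tags in EGFP-Negative and 3, 4 and 3 tags in EGFP-Positive libraries, too few to be tested with the other genes. The libraries of the groups did not overlap. The mean was 9.19 ± 3.34 normalized CPM in EGFP-Negative and 3.37 ± 0.622 in EGFP-Positive (SD, n = 3). A two-sided exact permutation test that ignored the replicate numbers gave p = 0.1, the smallest that 3 libraries against 3 can give. Without the filter on low genes *Omd* was not called (log2 fold change -1.36, adjusted p = 0.175 in edgeR). *Fmod*, which encodes fibromodulin, had 1, 0 and 2 tags in EGFP-Negative and 0, 2 and 0 tags in EGFP-Positive libraries. Every library was under the floor of 3 tags, which stands at 2.46 to 3.18 normalized CPM, so a difference in *Fmod* was not detectable at this depth.

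*Ogn*, the class III member, encodes osteoglycin, also called mimecan, and had 445, 438 and 644 tags in EGFP-Negative and 42, 91 and 126 tags in EGFP-Positive libraries. The groups were far apart, and EGFP-Positive replicate 1 was again the lowest library. Osteoglycin transcripts fell, with means of 455 ± 63.8 in EGFP-Negative and 85.7 ± 38.3 normalized CPM in EGFP-Positive (SD, n = 3). This is a drop of 5.29-fold (95% interval 3.67 to 7.61), or -2.40 on the log2 scale with an SE of 0.250 (adjusted p = 1.88e-06 in edgeR). *Podn*, which encodes the noncanonical member podocan, had 61, 67 and 114 tags in EGFP-Negative and 72, 65 and 74 tags in EGFP-Positive libraries. The EGFP-Positive libraries lay within the range of the EGFP-Negative libraries. The mean of *Podn* was 71.7 ± 19.2 normalized CPM in EGFP-Negative and 71.0 ± 5.17 in EGFP-Positive (SD, n = 3), with a log2 fold change of -0.02 (95% interval -0.46 to 0.41, adjusted p = 0.963 in edgeR), and its sign turned in some settings.

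**Figure D2:**
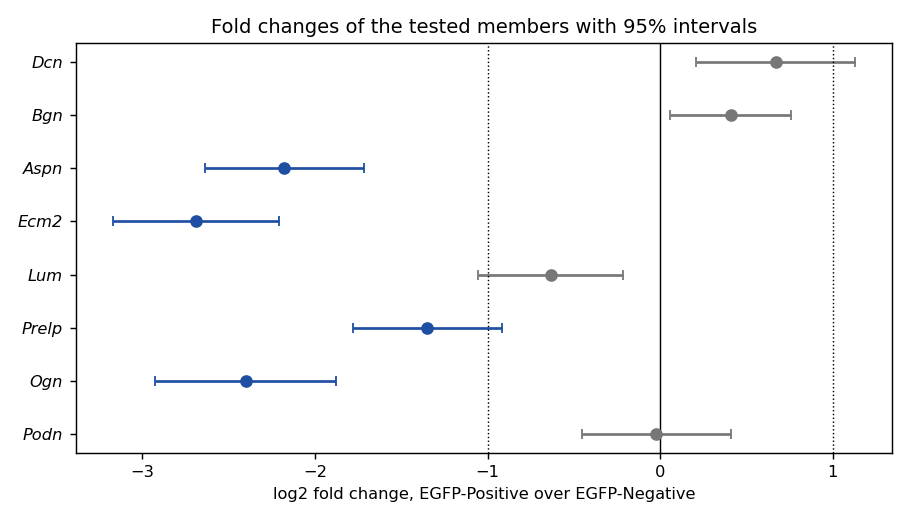
Log2 fold change of EGFP-Positive over EGFP-Negative for the 8 tested members (points) with 95% intervals (bars), from 3 libraries per group; dotted lines mark a fold change of 2, blue marks called genes and gray the others. *Ecm2*, *Ogn*, *Aspn* and *Prelp* lie at -2.69, -2.40, -2.18 and -1.35, and *Dcn* and *Bgn* lie above 0.

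Summed over the 10 genes, the members took 17700, 15756 and 19839 tags in EGFP-Negative and 27346, 19976 and 18295 tags in EGFP-Positive replicates 1, 2 and 3. Most of these tags came from *Dcn*, whose share of the members' tags was 79.3, 73.7 and 73.1% in EGFP-Negative and 90.3, 84.3 and 82.5% in EGFP-Positive libraries. The lowest of these shares has a 95% Wilson interval of 72.5 to 73.7% and the highest one of 89.9 to 90.6%, which cover counting error only. *Dcn* alone made up 1.08 to 1.33% of all tags in EGFP-Negative and 1.44 to 2.36% in EGFP-Positive libraries. The summed level of the members was 16012 ± 1056 normalized CPM in EGFP-Negative and 22238 ± 6012 in EGFP-Positive (SD, n = 3). Without *Dcn* the order of the groups turned, with 3926 ± 437 normalized CPM in EGFP-Negative and 3021 ± 194 in EGFP-Positive (SD, n = 3). *Lum*, the neighbor of *Dcn* on chromosome 10, had 7.64, 11.2 and 14.8 tags per 100 *Dcn* tags in EGFP-Negative and 2.76, 5.36 and 6.57 in EGFP-Positive libraries, with no overlap. *Bgn* had 10.4, 13.8 and 10.2 tags per 100 *Dcn* tags in EGFP-Negative and 7.03, 11.4 and 11.8 in EGFP-Positive libraries, and these overlapped.

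Levels of different genes were compared as normalized CPM per kb of the longest coding transcript; whether 5′ tags scale with transcript length was not tested. On that scale the order in EGFP-Negative cells was *Dcn* (6874 ± 701), *Bgn* (568 ± 61.7), *Lum* (546 ± 158), *Ogn* (177 ± 24.9), *Aspn* (110 ± 15.5), *Prelp* (59.7 ± 7.82), *Ecm2* (57.2 ± 16.6), *Podn* (22.6 ± 6.05), *Omd* (4.09 ± 1.48) and *Fmod* (0.277 ± 0.264; SD, n = 3). *Bgn* and *Lum* overlapped between libraries, as did *Prelp* and *Ecm2*, and the other neighbors in this order did not. In EGFP-Positive cells the order was *Dcn* (10931 ± 3511), *Bgn* (755 ± 52.9), *Lum* (352 ± 49.7), *Ogn* (33.4 ± 14.9), *Aspn* (24.1 ± 8.25), *Prelp* (23.3 ± 7.44), *Podn* (22.4 ± 1.63), *Ecm2* (8.83 ± 1.37), *Omd* (1.50 ± 0.276) and *Fmod* (0.217 ± 0.376; SD, n = 3). On this scale *Ogn* overlapped with *Aspn*, *Aspn* with *Prelp* and *Prelp* with *Podn*. *Bgn* and *Lum* stood apart in EGFP-Positive cells, and *Ecm2* stood below *Podn*, which it exceeded in EGFP-Negative cells. Without division by length, *Aspn* (56.1) stood below *Prelp* (84.4) and *Podn* (71.0) in EGFP-Positive cells, and the means of the other members kept their order in both groups. *Aspn* (222 to 294 normalized CPM) and *Prelp* (194 to 248) then overlapped between EGFP-Negative libraries, so their separation there depends on the division.

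Position in the genome was not used to choose the members. *Ecm2* (chromosome 13, 49504810 to 49532789), *Aspn* (49544443 to 49567565), *Omd* (49582462 to 49592612) and *Ogn* (49608015 to 49624501, RefSeq, GRCm38.p6) lie in a row on the plus strand within 119.7 kb. The 3 of them that were tested all fell, and they include the 3 members with the largest fold changes. Together these 4 genes had 864, 902 and 1343 tags in EGFP-Negative and 104, 185 and 244 tags in EGFP-Positive libraries, which is 926 ± 154 and 177 ± 62.0 normalized CPM (SD, n = 3), or 5.23-fold lower in EGFP-Positive cells. Their share of the members' tags was 4.88, 5.72 and 6.77% in EGFP-Negative and 0.380, 0.926 and 1.33% in EGFP-Positive libraries. Within the row, *Aspn* had 52.4, 60.5 and 55.6 tags per 100 *Ogn* tags in EGFP-Negative and 78.6, 65.9 and 60.3 in EGFP-Positive libraries, and these overlapped between groups, as did those of *Ecm2* on the same scale.
The tested flanking genes lay near 0. On the plus strand, *Bicd2* (49341549 to 49387026), *Nol8* (49653078 to 49679016) and *Iars* (49682130 to 49734267) had log2 fold changes of -0.15, 0.10 and 0.09 (adjusted p = 0.743, 0.876 and 0.879 in edgeR) and were not called. *Ippk* (49421198 to 49464574), between *Bicd2* and the row, had 6 to 11 tags per library and was not tested. All 4 members lie inside *Cenpp* (49464025 to 49652950) on the minus strand, which had 0 to 2 tags per library. In the annotation, 7 exonic bases of *Aspn* and 0 of the other 3 overlap exons of *Cenpp*, and tags were mapped in a fixed orientation. None of the 50-nt windows in the first 300 nt of the members' coding transcripts occurs in a transcript of another gene.
The other members are spread over more places. *Dcn* (97479500 to 97518163) and *Lum* (97565501 to 97572703) share chromosome 10 within 93.2 kb on the plus strand and lay on opposite sides. *Prelp* (133910304 to 133930102, minus strand) and *Fmod* (134037254 to 134048280, plus strand) share chromosome 1, *Podn* lies on chromosome 4 (108014793 to 108031954, minus strand) and *Bgn* on chromosome X (73483601 to 73495936, plus strand).

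**Figure D3:**
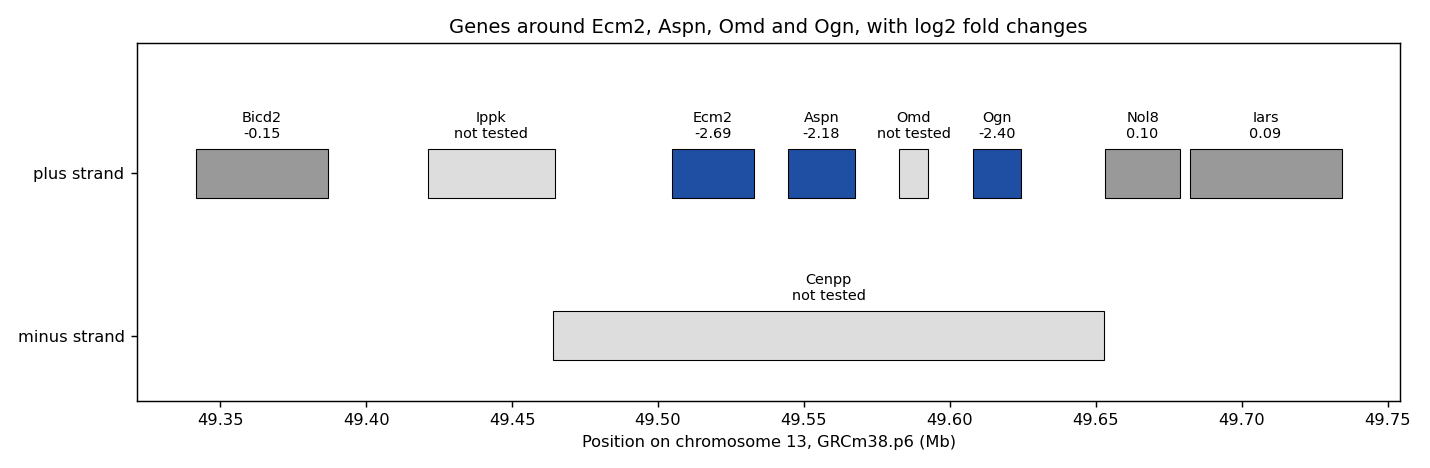
Genes on chromosome 13 (position in Mb, GRCm38.p6) by strand, drawn to scale, each with its log2 fold change of EGFP-Positive over EGFP-Negative; blue marks genes called lower, dark gray tested genes that were not called and light gray genes that were not tested. *Ecm2*, *Aspn* and *Ogn* stand at -2.69, -2.18 and -2.40 between flanking genes at -0.15, 0.10 and 0.09.

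RefSeq promoter windows (GRCm38.p6, 250 bases before to 50 after the annotated start) were matched for 8 of the 10 members. The windows of the 4 genes of chromosome 13 had a GC content of 31.0% (*Aspn*), 37.7% (*Omd*), 41.0% (*Ecm2*) and 42.3% (*Ogn*), all under the median of 52.7% over 32851 windows. Only 1.28% of windows had a lower GC content than that of *Aspn*. The other windows had 51.0% (*Fmod*), 55.3% (*Prelp*), 63.7% (*Bgn*) and, for the starts of *Podn*, 77.0 and 63.0%. Both strands were searched for motifs of 5 factors or boxes. The TATA box was searched as TATAAA, which 13.6% of all windows hold. For the TEAD factors the letters were GGAATG, found in 14.7% of windows, and for AP-1 they were TGANTCA, found in 7.81%. For C/EBP the letters were TTGCNNAA, found in 10.8% of windows, and the CArG box was found in 1.63%. *Aspn* held TATAAA or its reverse complement at bases 44 and 73 of the window, and *Ogn* held both in an overlap at bases 22 and 24 and GGAATG at base 165. *Fmod* held TTGCNNAA at base 126, and the windows of *Ecm2*, *Omd*, *Prelp*, *Bgn* and *Podn* held no match. A match says only that these letters are present. The windows of the 4 called members are shown so that their base composition can be compared, 5′ to 3′ on the strand of the gene, with matches in capitals: *Ecm2* (chr13:49504560-49504859, plus), *Aspn* (chr13:49544193-49544492, plus), *Ogn* (chr13:49607765-49608064, plus) and *Prelp* (chr1:133921352-133921651, minus). The start in the window of *Prelp* lies 8.70 kb inside the outermost RefSeq start of the gene and 13 bases inside the outermost GENCODE start. For *Podn* the starts lie 64491 and 65459 bases inside the outermost GENCODE start.
Ecm2 promoter: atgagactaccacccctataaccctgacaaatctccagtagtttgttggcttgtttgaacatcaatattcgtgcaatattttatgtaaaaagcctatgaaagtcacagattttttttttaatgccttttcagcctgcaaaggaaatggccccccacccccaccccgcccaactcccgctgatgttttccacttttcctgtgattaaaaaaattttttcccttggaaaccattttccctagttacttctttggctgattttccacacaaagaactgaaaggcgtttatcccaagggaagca
Aspn promoter: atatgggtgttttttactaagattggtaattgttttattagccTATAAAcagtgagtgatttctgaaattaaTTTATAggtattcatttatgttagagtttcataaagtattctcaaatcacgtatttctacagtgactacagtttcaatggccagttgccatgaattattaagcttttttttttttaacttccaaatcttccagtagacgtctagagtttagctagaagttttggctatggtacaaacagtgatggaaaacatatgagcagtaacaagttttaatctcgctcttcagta
Ogn promoter: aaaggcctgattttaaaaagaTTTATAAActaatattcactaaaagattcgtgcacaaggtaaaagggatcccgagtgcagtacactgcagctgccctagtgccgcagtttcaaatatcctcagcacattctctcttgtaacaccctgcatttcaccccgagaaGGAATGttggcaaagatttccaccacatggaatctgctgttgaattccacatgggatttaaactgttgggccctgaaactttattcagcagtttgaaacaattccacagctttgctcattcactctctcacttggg
Prelp promoter: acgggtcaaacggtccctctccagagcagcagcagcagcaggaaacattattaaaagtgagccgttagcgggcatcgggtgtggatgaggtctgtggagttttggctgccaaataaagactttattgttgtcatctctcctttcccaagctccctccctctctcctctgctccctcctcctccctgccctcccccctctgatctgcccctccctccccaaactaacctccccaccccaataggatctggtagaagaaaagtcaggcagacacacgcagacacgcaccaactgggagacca

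Relatives of the members that are not among the 10 had few tags. *Epyc*, which encodes epiphycan, had 13, 4 and 11 tags in EGFP-Negative and 1, 0 and 2 tags in EGFP-Positive libraries, and *Optc*, which encodes opticin, had 4, 6 and 7 against 1, 0 and 1 tags. Neither had enough tags to be tested, and in both the groups did not overlap. Without the filter on low genes *Epyc* was called lower (log2 fold change -2.88, adjusted p = 0.0052 in edgeR) and *Optc* was not (-2.68, adjusted p = 0.0748 in edgeR). *Kera*, *Chadl* and *Nyx* had at most 3 tags in any library. *Tsku*, which encodes the small secreted protein tsukushi, was the only 1 of these 6 genes that was tested, and stood at 0.01 on the log2 scale with an SE of 0.402 (adjusted p = 0.992 in edgeR). *Epyc* lies downstream of *Dcn* and *Lum* on chromosome 10 (97644068 to 97681908), and *Optc* lies beside *Prelp* on chromosome 1 (133897193 to 133909688).

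Collagens that the members bind moved in both directions. Of 11 tested genes for fibrillar collagens and their associates, 4 rose (*Col12a1*, *Col5a1*, *Col5a2* and *Col3a1*), 1 fell (*Col14a1*) and 6 were not called, with a median log2 fold change of 0.42. *Col14a1*, which encodes a collagen on the fibril surface that binds decorin, fell by 2.07 on the log2 scale (SE 0.251, adjusted p = 1.11e-05 in edgeR), while *Col12a1*, its closest relative, rose by 2.90 (SE 0.236, adjusted p = 1.16e-07 in edgeR). The main fibril chains *Col1a1* (log2 fold change 0.35) and *Col1a2* (0.42) were not called, and *Col3a1* had a log2 fold change of 1.04. *Col3a1*, *Col5a1* (1.07) and *Col5a2* (1.06) were close to the fold threshold. They were at 0.955, 0.98 and 0.97 with scaling by library size, at 0.83 (*Col3a1*) and 0.96 (*Col5a1*) without EGFP-Negative replicate 1, at 0.94 (*Col5a1*) without EGFP-Positive replicate 2 and at 0.97 (*Col5a2*) without EGFP-Positive replicate 1, where they were not called. In the annotation, 12.2% of the 5′ windows of *Col3a1* are shared with *Gm47302*.
Of 18 tested enzymes that build chondroitin, dermatan or keratan sulfate, 3 rose and 0 fell, with a median log2 fold change of 0.15; in DESeq2 and the other settings 0 fell as well, and 1 was lower in edgeR at an unadjusted p under 0.05. *Chst11*, which sulfates chondroitin, rose by 1.78 (SE 0.217, adjusted p = 1.14e-05 in edgeR), the sulfotransferase gene *Chst15* rose by 1.10 and *Csgalnact1*, which starts chondroitin chains, rose by 1.23, all on the log2 scale. *Chst15* was at 0.90 without EGFP-Negative replicate 3 and at 0.999 without EGFP-Positive replicate 2, and *Csgalnact1* was at 0.92 without EGFP-Negative replicate 1, where they were not called.
Of 12 tested receptors and growth factors that members are known to bind, 2 rose (*Cd14* and *Tgfb1*) and 1 fell (*Tgfb3*), with a median log2 fold change of 0.13. With the replicate block, and without EGFP-Positive replicate 2, 3 rose. *Cd14*, a coreceptor for Toll-like receptors, had 10, 4 and 5 tags in EGFP-Negative and 36, 31 and 13 tags in EGFP-Positive libraries, a log2 fold change of 2.22. *Tgfb1* stood at 1.177 and *Tgfb3* at -1.35 on that scale. *Tgfb1* lost its call without EGFP-Negative replicate 2 (1.06, adjusted p = 0.0762 in edgeR) and without EGFP-Positive replicate 1 (0.84).
Of 8 tested proteases that cleave members, 3 rose and 2 fell, with a median log2 fold change of 0.54. The metalloproteinase genes *Mmp13* (log2 fold change 4.75, SE 0.335), *Mmp3* (3.39, SE 0.286) and *Mmp2* (1.36, SE 0.178) rose, and *Htra1* (-1.14, SE 0.196) and *Adamts5* (-1.09, SE 0.222) fell. *Adamts5* was at -0.91 without EGFP-Negative replicate 3 or EGFP-Positive replicate 2, where it was not called. *Htra1* was at -0.98 without EGFP-Negative replicate 2 on the genes kept with all 6 libraries, where it was not called. Protein levels of the members and their cleavage were not measured.

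Many markers of other mesenchymal cells were also lower in EGFP-Positive libraries. All 8 smooth muscle markers fell, and their summed level was 2642, 3274 and 4092 normalized CPM in EGFP-Negative and 104.9, 176.7 and 349.99 in EGFP-Positive replicates 1, 2 and 3. *Myh11* was the most abundant in EGFP-Negative cells, and *Tagln* (mean 51.4) and *Acta2* (49.9) exceeded *Myh11* (39.2) in EGFP-Positive cells. Of 6 tested pericyte markers 4 fell, and *Abcc9* (log2 fold change 0.66, adjusted p = 0.0167 in edgeR) and *Kcnj8* (0.71, adjusted p = 0.0394 in edgeR) were higher but under the fold threshold. The list had sums of 2504, 2160 and 1982 against 943, 791 and 699 normalized CPM. *Rgs5* was the most abundant in EGFP-Negative cells, and *Abcc9* (mean 417, against 190 for *Rgs5*) in EGFP-Positive cells. Without *Rgs5* the pericyte sums were 568 ± 68.7 in EGFP-Negative and 621 ± 122 in EGFP-Positive (SD, n = 3). All 3 tested glial markers fell, with sums of 165, 151 and 207 against 22.3, 22.3 and 44.8 normalized CPM and *Cryab* the most abundant, and all 3 markers of interstitial cells of Cajal fell, with sums of 271, 168 and 258 against 21.2, 20.3 and 50.5 normalized CPM and *Ano1* the most abundant. Their part in the result was not tested. Of 12 fibroblast markers, which include *Col1a1*, *Col1a2* and *Col3a1*, 2 rose and 3 fell, with sums of 10927, 13346 and 14297 against 16720, 17761 and 16915 normalized CPM and a median log2 fold change of -0.03. *Col3a1* (1.04) and *Pdpn* (1.06) rose, and *Pi16* (-2.01), *Cd34* (-1.15) and *Cd81* (-1.15) fell, on the log2 scale. Under the fold threshold, *Thy1* was higher (0.88, adjusted p = 0.00832 in edgeR) and *Dpt* lower (-0.96, adjusted p = 0.000826 in edgeR). A part of fibroblast subsets in the result was not tested. Without *Col3a1* the sums of the fibroblast markers were 8488 ± 607 in EGFP-Negative and 8123 ± 502 in EGFP-Positive (SD, n = 3).
Markers of cell types that are not the target of the sort were read as well. Endothelial markers summed to 27.3 to 43.0 normalized CPM in EGFP-Negative and 6.68 to 18.0 in EGFP-Positive libraries, with *Tek* the most abundant and *Pecam1*, *Kdr*, *Vwf* and *Lyve1* at 3 tags or fewer in every library. Immune markers summed to 25.5 to 39.6 and 13.4 to 19.1 normalized CPM, with *Cd3e*, *Cd79a* and *Itgam* at 3 tags or fewer. *Cd74* was the most abundant of them in EGFP-Negative cells, and *Cd68* (mean 6.45, against 5.24 for *Cd74*) in EGFP-Positive cells. Epithelial markers summed to at most 13.96 normalized CPM with *Epcam*, *Krt18*, *Vil1* and *Muc2* at 3 tags or fewer, and mesothelial markers to at most 15.6 with *Msln*, *Lrrn4* and *Krt7* at 3 tags or fewer. The 4 hemoglobin genes of red cells summed to 0 to 305 normalized CPM in EGFP-Negative and 2.03 to 19.1 in EGFP-Positive libraries, with *Hbb-bs* the most abundant; all 4 together had 371 tags in EGFP-Negative replicate 3. No marker with a row in the deposited counts was at 0 in all 6 libraries, and 1 endothelial, 1 immune and 1 epithelial marker had no row.

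The genes outside the members whose pattern over the 6 libraries was most like that of the summed members were *Sav1*, *Mapk6* and *Foxp4*, at root mean square distances of 0.0627, 0.0718 and 0.0764 on the centered log2 scale. *Sav1* had 47, 43 and 58 tags in EGFP-Negative and 71, 55 and 47 tags in EGFP-Positive libraries, which gave 0.40 on the log2 scale (SE 0.226) and no call. *Mapk6* and *Foxp4* had log2 fold changes of 0.40 and 0.46 and were not called either. The summed pattern is mainly that of *Dcn*.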

How the data were processed

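RNA was measured in 3 EGFP-Negative and 3 EGFP-Positive libraries. The authors trimmed reads with Cutadapt 1.18, used Bowtie2 2.2.5 to map them in a fixed orientation to mm10 RefSeq transcripts and deposited raw tag counts by gene symbol; the handling of tags that match several genes is not given in the sources used here. A gene entered the test when 3 or more libraries held 10 or more of its tags, since the methods name 10 tags and their wording was read as a minimum to keep. Counts were scaled by TMM and compared with edgeR 4.0.16 (quasi-likelihood, R 4.3.3), p-values were adjusted by Benjamini-Hochberg over all tested genes, and the thresholds follow the methods. Normalized CPM were computed on library sizes scaled by TMM, exact permutation tests used SciPy 1.17.1, and intervals are at 95%. A floor of 3 tags was used, and intervals from counts cover counting error only. The methods name 3 mice, and p-values measure the spread between these libraries. The labels number the libraries 1 to 3 in each group and do not say whether same-numbered libraries share a mouse. Deviations of same-numbered libraries from their group means had r of 0.230, 0.185 and 0.261 across 5063 genes, which are not independent replicates. Libraries with different numbers had a mean r of -0.111, and centering on group means ties it to the r of same-numbered libraries. These values therefore cannot decide whether the libraries are paired, and the main test was unpaired. Adding a replicate block to the fit changed no call of a member, though *Bgn* then passed on p.

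Alternatives were RLE, iterative TMM, library size only, DESeq2 1.42.0, no filter, 10 tags in all 6 libraries, the replicate block, no fold threshold, and each library left out. Leaving out a library on the genes kept with all 6 was added after seeing the data. Members and gene lists were chosen with earlier results of these data known. Genes named are the 10 members, *Il11*, their relatives, *Col1a1*, *Col1a2* and *Col3a1*, up to 4 called genes per direction of each partner list by size of change, markers, and the 3 genes most like the summed members; *Cenpp*, *Ippk*, *Bicd2*, *Nol8*, *Iars* and *Gm47302* were chosen after values were seen. Positions and promoters are from RefSeq (GRCm38.p6), strands, transcripts and exons from GENCODE release M21.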

Additional observations from a re-analysis of the deposited data

How the results depend on the processing

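The same 4 members were called lower in all 20 alternatives, and the number called lower was 4 in each except without a fold threshold, where *Lum* made it 5. Log2 fold changes over the alternatives were -2.85 to -2.43 for *Ecm2*, -2.73 to -2.09 for *Ogn*, -2.41 to -1.93 for *Aspn*, -1.64 to -1.17 for *Prelp*, -0.815 to -0.38 for *Lum*, 0.39 to 0.84 for *Dcn* and 0.31 to 0.49 for *Bgn*. Without a fold threshold 638 of all tested genes were higher instead of 321, and 1 member, *Dcn*, was higher; this follows from the rule. With 10 tags required in all 6 libraries, 256 of 7098 tested genes were lower instead of 595 of 9334; this filter also drops genes with under 10 tags in EGFP-Positive libraries alone. Leaving out 1 library gave 341 (without EGFP-Negative replicate 1) to 579 lower genes, with 355 without EGFP-Negative replicate 2, and up to 580 on the genes kept with all 6. *Podn* turned to 0.018 without a filter, and leaving out 1 library gave -0.17 to 0.22 (0.206 or 0.224 without EGFP-Negative replicate 3 and 0.035 or 0.032 without EGFP-Positive replicate 2, the latter of each on the genes kept with all 6 libraries); the cause was not tested. With the replicate block 337 genes were higher and 648 lower, and no call of a member changed. Over the alternatives, 1 to 5 collagens, 2 to 4 chain-building enzymes, 1 to 3 receptors or growth factors and 3 to 4 proteases rose, and 1, 0, 1 to 2 and 1 to 2 fell. Of 303 refits of 16 other named genes with a call, 26 lost it and 0 reversed.

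Depth limits *Fmod*, which was under the floor of 3 tags in every library, and *Omd*, which had 7 to 13 tags in EGFP-Negative and 3 to 4 in EGFP-Positive libraries. PCR duplicates among the tags could not be identified. With 3 libraries per group, exact tests that ignore the replicate numbers, as used here, cannot go below 0.1.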

Other observations

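Within groups, the members did not share an order of libraries. EGFP-Positive replicate 1 was the highest EGFP-Positive library for *Dcn* and *Podn* and the lowest for *Aspn*, *Ecm2*, *Lum*, *Prelp* and *Ogn*, and it also had the lowest sum of smooth muscle markers. EGFP-Negative replicate 3 was the highest EGFP-Negative library for *Aspn*, *Ecm2*, *Lum*, *Ogn* and *Podn* and had the highest sum of smooth muscle markers, and it was the lowest for *Bgn*, *Prelp* and *Omd*. The glial sum had the same extremes as the smooth muscle sum. Within groups, the pericyte sum was highest in EGFP-Positive replicate 1 (943) and lowest in EGFP-Negative replicate 3 (1982 normalized CPM). The sum for interstitial cells of Cajal was highest in EGFP-Negative replicate 1 (271) and lowest in EGFP-Positive replicate 2 (20.3 normalized CPM). The part of these cells in the order of libraries was not tested. Between same-numbered libraries, the ratio of EGFP-Positive to EGFP-Negative normalized CPM was 1.95, 1.56 and 1.21 for *Dcn*, 1.32, 1.28 and 1.39 for *Bgn* and 0.705, 0.750 and 0.535 for *Lum*. For the genes that fell, it was 0.157, 0.244 and 0.247 for *Aspn*, 0.167, 0.171 and 0.136 for *Ecm2*, 0.105, 0.224 and 0.227 for *Ogn* and 0.303, 0.307 and 0.591 for *Prelp*. The groups did not overlap for any of these genes, so any matching of the libraries would give ratios on the same side of 1.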
